A study of Rattus norvegicus with 12 samples.

Results

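Antioxidant defence was followed through 5 genes in the motor cortex of rats with and without a 6-OHDA lesion and with and without cortical stimulation. The genes were Hmox1 (ENSRNOG00000014117), Nqo1 (ENSRNOG00000012772), Sod1 (ENSRNOG00000002115), Sod2 (ENSRNOG00000019048) and Cat (ENSRNOG00000008364), and all 5 were found among the 16534 features measured. Messenger RNA was sequenced from 12 rats, 3 in each of 4 groups: untreated controls, rats given 6-OHDA to model Parkinson's disease (labelled PD), controls with stimulation, and PD rats with stimulation. 6-OHDA (6-hydroxydopamine) is a toxin taken up by catecholamine neurons. Stimulation at 130 Hz reached the primary motor cortex through an implanted graphene array, for 1 hour daily during 2 weeks. Whether the schedule also held for stimulated controls, and whether unstimulated rats carried an array or had a sham operation, is not given in the sources used here, and neither are strain, sex, age and hemisphere. PD and stimulated PD rats are together called lesioned below, as labelled.

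Cells limit oxidative damage in steps. Superoxide, a by-product of respiration and of some oxidases, is turned into hydrogen peroxide by superoxide dismutases, of which SOD1 works mainly in the cytosol and SOD2 in the mitochondrial matrix. Catalase, encoded by Cat, then splits hydrogen peroxide, chiefly in peroxisomes. HMOX1 (heme oxygenase-1) breaks heme down to biliverdin, iron and carbon monoxide, and NQO1 reduces quinones without forming semiquinone radicals. Both are textbook targets of the transcription factor NRF2, which binds antioxidant response elements, and Hmox1 is also repressed by BACH1. 6-OHDA itself auto-oxidises to quinones and reactive oxygen species.

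Libraries held 42905441 to 62082830 counted reads. Levels are given in CPM (a gene's reads relative to the library's total) without length correction, so they are compared between rats and not between genes. No gene symbols come with the other features, so neither the rest of the pathway nor cell type markers of the motor cortex could be looked up, and the tissue label was not checked. In bulk tissue, fewer cells of a type and less RNA per cell cannot be told apart. The labels number the rats within each group and name no cohort or library batch.

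None of the 5 genes passed the main test in any comparison. That test was limma on log2(CPM + 0.5) over 14985 features (those averaging 0.5 CPM or more), with a Benjamini-Hochberg adjusted p under 0.05 as threshold. In the F-test over the 4 groups 0 of 5 genes passed, against 8.48% of all features, and Hmox1 was the closest (limma adjusted p = 0.0862), followed by Sod2 (0.203) and Cat (0.205). By deposited level, Hmox1 had a wide spread between rats, with its lowest levels in all 3 PD rats, and Sod2 a narrow, high band in stimulated PD rats. How many features have a group beyond all other libraries was not counted. Overlap was judged on the deposited scale, here and below. Groups without overlap were common: 29.1% of features for PD and control rats, and 41.4% for stimulated PD and stimulated control rats.

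**Figure D1:**
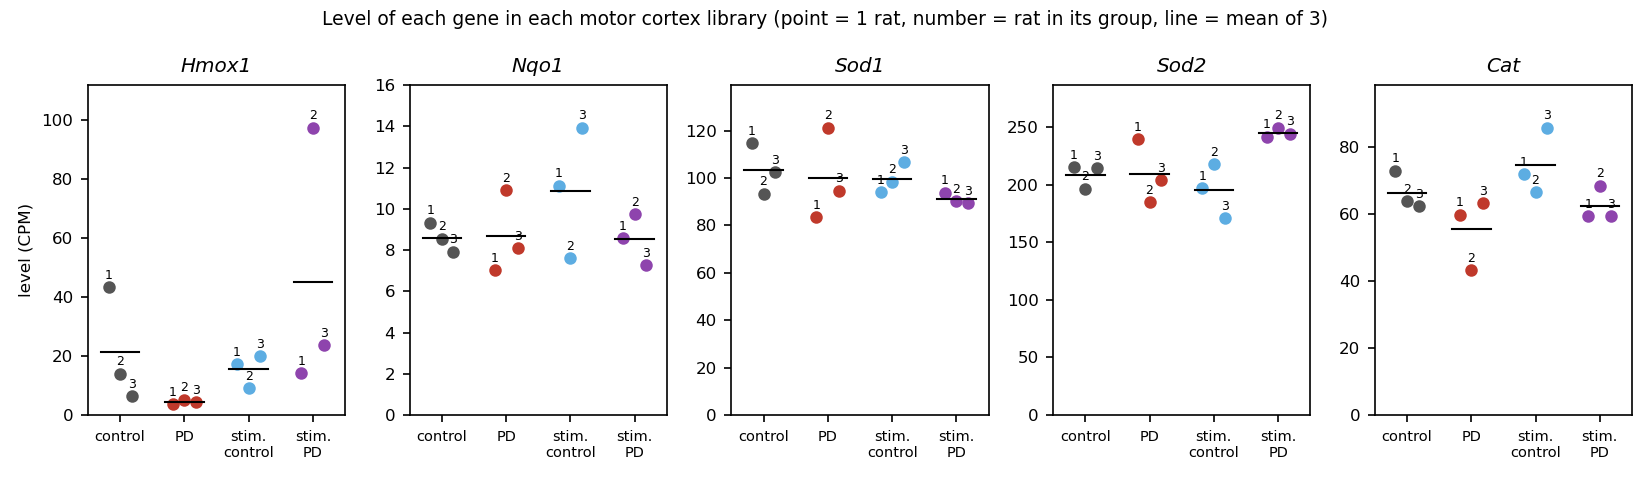
Level of each gene in CPM (y axis, from 0, its own scale per gene) in the 4 groups (x axis), with 1 point per rat, the rat's number in its group above it and a line at the mean of 3. Hmox1 in PD rats lay between 3.80 and 5.22 CPM, below every other library. Sod2 in stimulated PD rats lay between 242 and 250 CPM, above every other library on this deposited scale.

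Hmox1, the stress-inducible heme oxygenase, stood at 43.5, 14.0 and 6.44 CPM in control rats 1 to 3 and at 3.80, 5.22 and 4.32 CPM in PD rats 1 to 3. It stood at 17.3, 9.20 and 20.1 CPM in stimulated controls and at 14.1, 97.6 and 23.8 CPM in stimulated PD rats. The 3 PD rats were thus the lowest of all 12 libraries, and the highest was stimulated PD rat 2. Control rat 1 came next, so the upper end of the range was shared by a lesioned and an unlesioned rat.

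Hmox1 averaged 21.3 ± 19.6 CPM in controls and 4.44 ± 0.719 CPM in PD rats, and 15.5 ± 5.65 CPM in stimulated controls and 45.2 ± 45.7 CPM in stimulated PD rats (SD, n = 3). Within the control group the highest rat was 6.76-fold above the lowest, within stimulated PD rats 6.92-fold, and within PD rats only 1.37-fold. Counting error was far smaller. Hmox1 had 179 to 5155 reads per library, and its relative counting error was 2.08% to 6.42% by group, whereas its coefficient of variation between rats was 16.2% to 101%. The 95% Poisson interval, which covers counting error only, ran from 4.63 to 5.86 CPM for the highest PD rat and from 5.77 to 7.16 CPM for the lowest control, so these neighbours were close to each other.

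Against this spread, the lower Hmox1 level of PD rats was not called. It was 3.35-fold below control (log2 difference -1.74, SE 0.69, 95% interval -3.26 to -0.23, lower in 3 of 3 rats than any control, limma adjusted p = 0.152). Without control rat 1, the control with the highest level, the log2 difference was -1.03 (limma adjusted p = 0.452), and without control rat 3 it was -2.36 (limma adjusted p = 0.0989).

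Stimulated PD rats set against PD rats gave the largest difference between 2 groups for any of these genes. Whether the PD rats carried an array is not given, so stimulation and implantation cannot be told apart here. Hmox1 was 6.65-fold higher in stimulated PD rats (log2 difference 2.73, SE 0.69, 95% interval 1.22 to 4.25), and each stimulated PD rat lay above each PD rat. Its size exceeded that of 99.9% of all features in this comparison. The unadjusted limma p was 0.00202, with 17.4% of all features under 0.05, but the adjusted p was 0.184, and limma called 0 of 14985 features here. edgeR's quasi-likelihood test on the recovered reads gave a log2 difference of 3.24 with an adjusted p of 0.101, and DESeq2 gave 3.22 with an adjusted p of 0.00555, in a comparison in which DESeq2 called 6.06% of features. Leaving out stimulated PD rat 2 lowered the limma difference to 1.94 (adjusted p = 0.581). Without PD rat 1 it was 2.64 and passed limma (adjusted p = 0.0457), in a fit that called 2943 features in all.

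In unlesioned rats, Hmox1 showed no such separation between stimulated and unstimulated groups: the log2 difference was -0.11 (SE 0.69, 95% interval -1.62 to 1.41, limma adjusted p = 1.00), a range that still includes more than a doubling in either direction. The gap between the 2 stimulated minus unstimulated differences, the interaction, was 2.84 on the log2 scale (SE 0.98, 95% interval 0.70 to 4.98), with an unadjusted limma p of 0.0137 (4.13% of all features were under 0.05) and an adjusted p of 0.834. Limma called 0% of features for the interaction and DESeq2 0.200%. Among stimulated rats, Hmox1 was 2.14-fold higher in the lesioned ones (log2 difference 1.10, 95% interval -0.42 to 2.61, limma adjusted p = 0.335), opposite in sign to the unstimulated pair, and the libraries overlapped. Without stimulated PD rat 2 this log2 difference was 0.30 (limma adjusted p = 0.787).

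**Figure D2:**
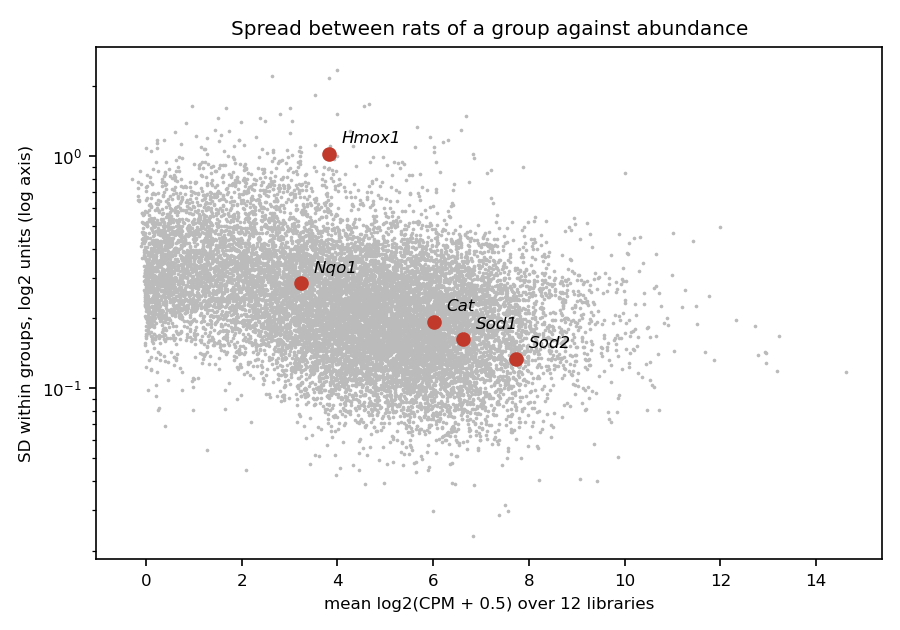
Each grey point is 1 of 14985 features, with its mean log2(CPM + 0.5) over 12 libraries on the x axis and its SD between rats of a group, in log2 units on a log axis, on the y axis. Hmox1, at an SD of 1.02, lies at the upper edge of the features of its abundance, whereas the other 4 genes lie within the bulk.

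Measured over all groups, the SD of Hmox1 between rats of a group was 1.02 on the log2 scale, above 99.6% of all features tested and above 99.6% of the 2306 features within 0.5 log2 units of its mean level. The median feature had an SD of 0.23. Nqo1 (SD 0.28) lay at percentile 66.8, Cat (0.19) at 39.2, Sod1 (0.16) at 27.6 and Sod2 (0.13) at 17.0. Hmox1 varied little among PD rats (SD 0.21 on the log2 scale) and widely among control and stimulated PD rats (1.34 and 1.42). The limma fit gives all 4 groups of a feature 1 variance, so its standard errors for Hmox1 average over these.

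Nqo1, the quinone reductase, had nearly equal means in PD and control rats. Within the control, PD and stimulated control groups the 3 rats stood in the same order as for Hmox1. This was not particular to Nqo1: Cat shared that order in control and stimulated control rats. In stimulated PD rats, rat 2 was highest for both Cat and Hmox1, but Cat was level at 59.3 CPM in rats 1 and 3. Pearson's r with Hmox1 over the 12 libraries was 0.32 for Nqo1 and 0.49 for Cat. With group means removed it was 0.55 for Nqo1 and 0.45 for Cat. For Nqo1 itself, all values follow. Its levels were 9.32, 8.55 and 7.92 CPM in controls and 7.04, 10.9 and 8.10 CPM in PD rats. They were 11.1, 7.60 and 13.9 CPM in stimulated controls and 8.57, 9.73 and 7.27 CPM in stimulated PD rats. All groups overlapped, and the highest library was stimulated control rat 3. The log2 difference was -0.01 in PD against control rats (fold 0.996, 95% interval 0.714 to 1.39, limma adjusted p = 0.990) and -0.01 in stimulated PD against PD rats (fold 0.992, 95% interval 0.711 to 1.38, limma adjusted p = 0.979). These intervals allow differences of up to about 1.39-fold and 1.38-fold upward, and the sign of the first turned with the scaling of libraries.

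The promoters of Nqo1 and Sod2 are shown because one is the classical NRF2 target and the other was the only gene of the 4 matched to hold the core of an antioxidant response element, spelled TGACNNNGC. Sequences are from RefSeq on assembly GRCr8, from 250 bases before to 50 after the annotated start, 5′ to 3′ on the gene's strand, matched by symbol for 4 of the 5 genes (all but Hmox1). Both strands were searched, and capitals mark the match. The Nqo1 window is chr19:52220218-52220517 and the Sod2 window is chr1:50050119-50050418, both on the minus strand.
Nqo1: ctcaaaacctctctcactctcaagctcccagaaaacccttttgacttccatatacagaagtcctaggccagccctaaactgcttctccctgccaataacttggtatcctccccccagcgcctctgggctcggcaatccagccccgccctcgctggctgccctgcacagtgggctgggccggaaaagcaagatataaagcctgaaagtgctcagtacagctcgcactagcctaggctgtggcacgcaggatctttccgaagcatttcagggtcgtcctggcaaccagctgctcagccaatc
Sod2: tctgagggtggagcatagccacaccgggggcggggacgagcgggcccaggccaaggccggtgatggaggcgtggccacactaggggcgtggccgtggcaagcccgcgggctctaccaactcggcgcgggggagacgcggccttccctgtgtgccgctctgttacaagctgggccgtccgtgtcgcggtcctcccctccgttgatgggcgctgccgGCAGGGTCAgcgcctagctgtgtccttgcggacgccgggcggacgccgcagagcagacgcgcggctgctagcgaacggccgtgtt
The Sod2 match, TGACCCTGC on the opposite strand, begins 35 bases before the start. The core occurs in 12.1% of the 33469 RefSeq windows of 300 bases. The core followed by an A occurs in 1003 of the 33469 windows and in 0 of these 4. A match describes letters and not a bound site, and elements outside these windows were not searched.

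Sod2, the mitochondrial manganese superoxide dismutase, gave the tightest group of the data set among these genes on the deposited scale. It stood at 242, 250 and 244 CPM in stimulated PD rats 1 to 3. It stood at 215, 197 and 214 CPM in controls, at 239, 185 and 204 CPM in PD rats, and at 197, 218 and 171 CPM in stimulated controls. On the deposited scale every stimulated PD rat exceeded all 9 other libraries, although PD rat 1, at 239 CPM, lay just below them. That order depended on scaling. TMM factors, which rescale each library, were 0.954 for PD rat 1 and 0.991, 1.01 and 0.936 for stimulated PD rats 1 to 3. Dividing by them put PD rat 1 above stimulated PD rats 1 and 2 and widened the band of stimulated PD rats. As deposited, Sod2 averaged 209 ± 10.6 CPM in controls and 209 ± 27.6 CPM in PD rats, and 195 ± 23.6 CPM in stimulated controls against 245 ± 4.07 CPM in stimulated PD rats (SD, n = 3).

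Among stimulated rats, Sod2 was 1.26-fold higher in lesioned rats (log2 difference 0.33, SE 0.12, 95% interval 0.08 to 0.59, higher in 3 of 3 rats, limma adjusted p = 0.105). The unadjusted limma p was 0.0145, a level that 26.3% of all features reached. DESeq2 gave 0.43 with an adjusted p of 0.0213, where it called 13.5% of features. The limma adjusted p was 0.0470 without PD rat 1 and 0.0454 without PD rat 2, which enter this comparison only through the estimate of spread. Those 2 fits called 1876 and 2258 of 14985 features here, against 217 in the main fit. Against PD rats the log2 difference was 0.23 (limma adjusted p = 0.303), and against controls it was also 0.23 (limma adjusted p = 0.271, or 0.0393 with only these 2 groups fitted). Of the 5 genes, 2 (Sod1 and Sod2) had libraries that did not overlap between stimulated PD and stimulated control rats, where 41.4% of all features did not overlap, so the lack of overlap sets neither apart.

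With both pairs of groups combined, Sod2 averaged 227 CPM in the 6 lesioned and 202 CPM in the 6 unlesioned rats, and the libraries overlapped. The log2 difference was 0.17 (SE 0.08, 95% interval -0.01 to 0.35, limma adjusted p = 0.161). This value depended on how libraries were scaled. The median log2 difference of all features between lesioned and unlesioned rats was -0.12 on the deposited scale, 0.01 under rescaling by TMM or by median-of-ratios factors and 0.04 under quantile normalization. Relative to the median feature, Sod2 was 0.29 higher in lesioned rats on the deposited scale and under both sets of factors. With those factors it passed limma (log2 difference 0.31, adjusted p = 0.0249, and 0.30, adjusted p = 0.0350), as it did in edgeR (0.30, adjusted p = 0.0436) and DESeq2 (0.29, adjusted p = 0.0127). After quantile normalization it was 0.17 and did not pass (limma adjusted p = 0.121). In this comparison 23.0% of all features were called by limma, 21.8% by edgeR and 29.2% by DESeq2. With TMM and median-of-ratios factors, limma called 3492 and 3309 of 14985 features. The 2 pairs behind the combined Sod2 value differed. On the deposited scale the log2 difference was -0.00185 in unstimulated rats (limma adjusted p = 0.994) and 0.33 in stimulated rats (limma adjusted p = 0.105). With TMM factors these were 0.17 and 0.45.

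**Figure D3:**
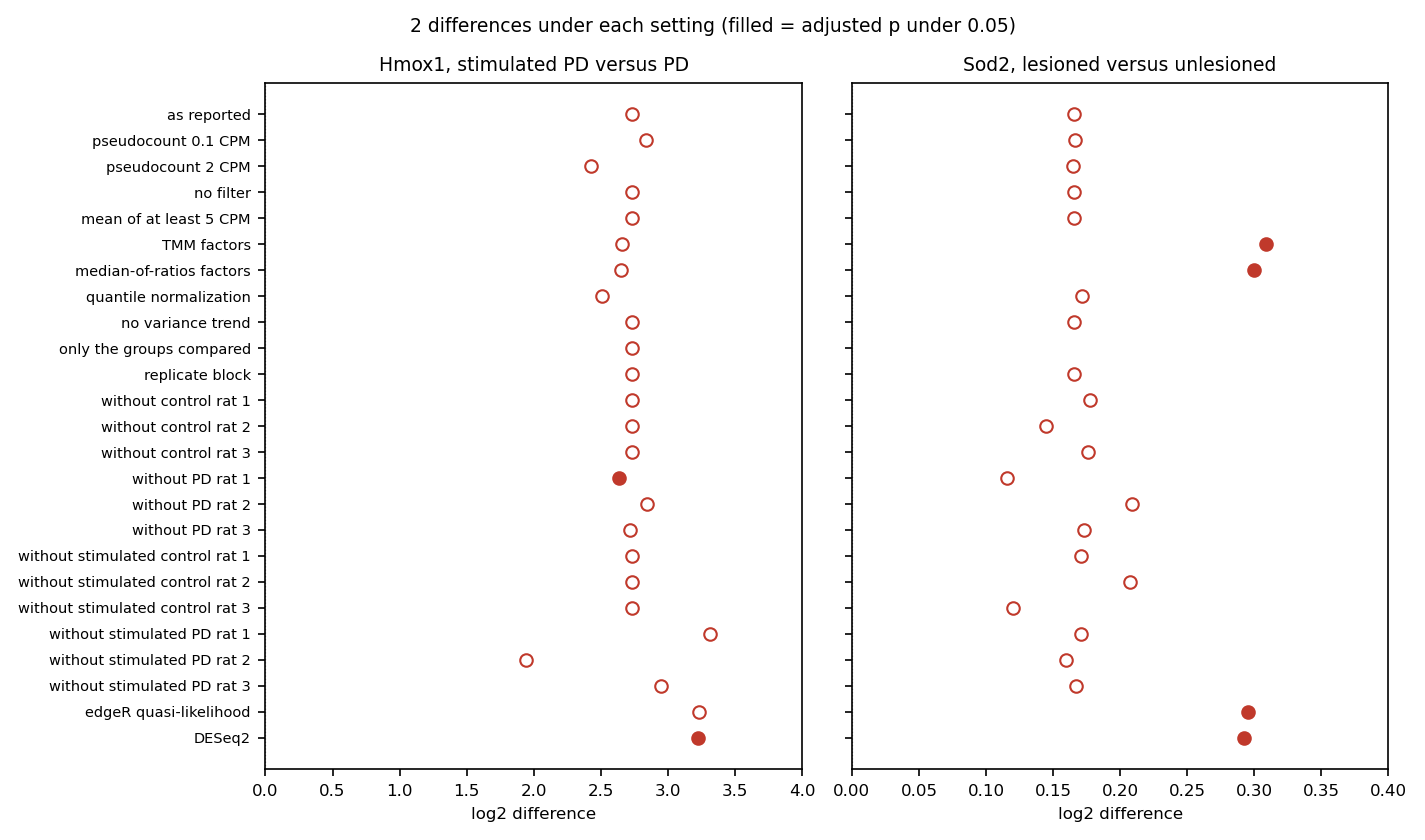
Log2 difference (x axis) of Hmox1 in stimulated PD against PD rats (left) and of Sod2 in lesioned against unlesioned rats (right) under each setting (y axis), with filled points where the adjusted p was under 0.05. Hmox1 ran from 1.94 to 3.31 and Sod2 from 0.12 to 0.31, with all values above 0.

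Sod1, the cytosolic copper-zinc enzyme, did not share the position of Sod2. It stood at 115, 93.4 and 102 CPM in controls, at 83.6, 121 and 94.7 CPM in PD rats, at 94.2, 98.5 and 107 CPM in stimulated controls, and at 93.8, 90.1 and 89.4 CPM in stimulated PD rats. The 3 stimulated PD rats were again close together, but here just below all stimulated controls, of which the lowest had 94.2 CPM. The log2 difference in that pair was -0.13 (fold 0.914, 95% interval 0.749 to 1.12, limma adjusted p = 0.562), and relative to the median feature it was -0.01. In PD against control rats it was -0.06 (fold 0.956, 95% interval 0.783 to 1.17, limma adjusted p = 0.807).

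A ratio of Sod1 to Sod2 within a library does not depend on library scaling. The log2 of the ratio of their CPM values, read only across rats because gene length is not corrected, was -1.47 to -1.37 in stimulated PD rats. It was -1.07 to -0.91 in controls and -1.15 to -0.68 in stimulated controls, so stimulated PD rats lay below all 6 unlesioned rats. PD rats spanned -1.52 to -0.61 and covered all of these. The ratios of all other pairs of these genes were also taken. Only that of Sod2 to Cat also separated stimulated PD rats from all 6 unlesioned rats. It was 1.87 to 2.04 in stimulated PD rats, 1.56 to 1.78 in controls and 0.995 to 1.71 in stimulated controls. In PD rats it was 1.69 to 2.10. Both separating ratios contain Sod2, whose own deposited level was highest in stimulated PD rats. How often pairs of other features separate in this way was not counted. No test was made on these ratios.

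Cat, which encodes catalase, averaged 58.9 CPM in lesioned and 70.6 CPM in unlesioned rats. Its levels were 73.0, 63.9 and 62.4 CPM in controls, 59.8, 43.2 and 63.2 CPM in PD rats, 71.9, 66.4 and 85.8 CPM in stimulated controls, and 59.3, 68.5 and 59.3 CPM in stimulated PD rats. PD rat 2 was lowest and stimulated control rat 3 highest, and lesioned and unlesioned libraries overlapped. The log2 difference was -0.26 (1.20-fold lower, SE 0.11, 95% interval -0.50 to -0.03, limma adjusted p = 0.0935), with the smallest adjusted p of the 5 genes in this comparison. Relative to the median feature it was -0.14, and with TMM factors the difference was -0.12 (limma adjusted p = 0.331). The estimate had the same sign in both pairs, at -0.28 in unstimulated rats (limma adjusted p = 0.290) and -0.25 in stimulated rats (limma adjusted p = 0.307). Stimulation differences were 0.19 in lesioned and 0.16 in unlesioned rats (limma adjusted p = 0.477 and 1.00). Without PD rat 2 the unstimulated pair gave -0.11 and the stimulation difference in lesioned rats was 0.02, and without stimulated control rat 3 the stimulated pair gave -0.15 and the stimulation difference in unlesioned rats was 0.06.

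**Figure D4:**
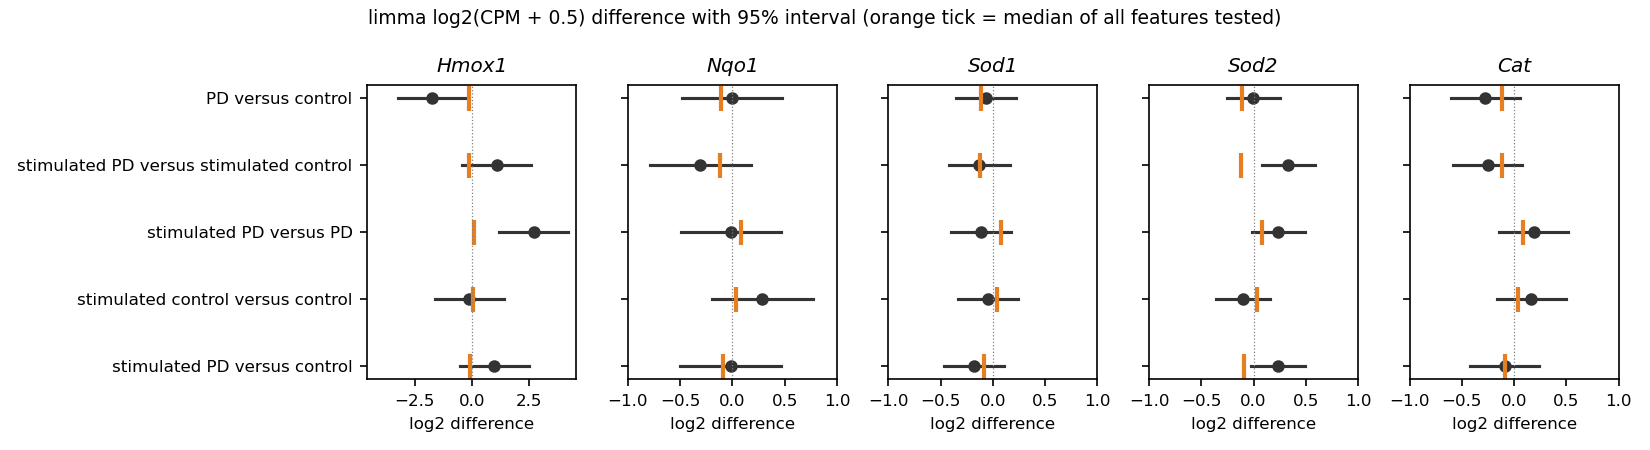
Points are limma log2(CPM + 0.5) differences (x axis, wider for Hmox1 than for the other genes) in 5 comparisons (y axis), bars are 95% intervals and orange ticks mark the median of all features tested. The intervals of Hmox1 are the widest, and apart from Hmox1 in the comparisons of PD with control and of stimulated PD with PD rats and Sod2 in stimulated PD against stimulated control rats, every interval includes 0.

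By comparison, the 5 genes gave few signs of a common shift. Between PD and control rats, 0 of 5 were called by limma, edgeR or DESeq2, against 4.38%, 3.17% and 13.6% of all features, and 1 (Hmox1) had an unadjusted limma p under 0.05, as did 24.1% of all features. Their median log2 difference was -0.06, beside -0.11 for all features. Hmox1 was the 1 gene of 5 whose libraries did not overlap, as was the case for 29.1% of all features.

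Between stimulated PD and stimulated control rats, limma and edgeR called 0 of 5 and DESeq2 1 (Sod2), where limma called 1.45% and DESeq2 13.5% of all features and edgeR 15 of 14985. The median of the 5 was -0.13, beside -0.12 for all features. Between all lesioned and unlesioned rats, limma called 0 of 5 while edgeR and DESeq2 each called 1 (Sod2), against 23.0%, 21.8% and 29.2% of all features. By limma 1 gene (Cat) had an unadjusted p under 0.05, as did 38.2% of all features. The 5 genes had a median of -0.16, beside -0.12 for all features, and 0 of 5 had libraries that did not overlap, against 9.36%.

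Between stimulated PD and PD rats, limma and edgeR called 0 of 5, as they called 0% of all features. DESeq2 called 1 (Hmox1), against 6.06% of all features. The 2 genes whose libraries did not overlap were Hmox1 and Sod2, both higher in stimulated PD rats, where 14.2% of all features did not overlap. For Sod2 this did not hold after division by the TMM factors. The median of the 5 was 0.19, beside 0.08. Between stimulated and unstimulated controls, 0 of 5 were called by limma, edgeR or DESeq2, 0 had an unadjusted limma p under 0.05 (1.79% of all features did) and 0 had libraries without overlap (8.88% did). Between stimulated PD rats and controls, 0 of 5 were called by any of the 3 tools, against 0.0334% of all features by limma, 0.0334% by edgeR and 8.19% by DESeq2. None of the 5 had an unadjusted limma p under 0.05, whereas 20.9% of all features did. Sod2 alone did not overlap there, where 41.4% of features did not. Comparisons that share a group share its libraries.

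Single rats rather than groups held several of the extremes. PD rat 2 had the highest Sod1 (121 CPM), the third highest Nqo1 (10.9 CPM), the lowest Cat (43.2 CPM) and the second lowest Sod2 (185 CPM) of the 12 rats. Stimulated control rat 3 had the highest Nqo1 (13.9 CPM) and Cat (85.8 CPM) and the lowest Sod2 (171 CPM). PD rat 1 stood opposite to PD rat 2 for these 3 genes, with the lowest Sod1 (83.6 CPM) and Nqo1 (7.04 CPM) and the fourth highest Sod2 (239 CPM). Libraries also differed in makeup, by lesion label as well as by rat. The top 10 features by level held 11.6% of the reads of PD rat 2 and 10.5% of those of PD rat 1. Over all lesioned libraries this share ran from 9.68% to 12.3%. Over all unlesioned libraries, stimulated control rat 3 included, it ran from 7.64% to 8.71%, without overlap. Makeup thus went with the lesion label in every comparison of lesioned with unlesioned rats. The part of this makeup in the levels was not tested.

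The features whose levels ran most like each gene were sought by Pearson's r of log2(CPM + 0.5) over the 12 libraries, as a description, among 14091 other features averaging 1 CPM or more. For Hmox1 only 2 features exceeded r = 0.9, and the closest were ENSRNOG00000049498 (r = 0.90, 2.27 to 6.53 CPM) and ENSRNOG00000002217 (r = 0.90, 0.254 to 24.0 CPM). Nqo1 had 14 such features, Sod1 96, Sod2 68 and Cat 231. The closest feature to Sod2 was ENSRNOG00000003392 (r = 0.97, 90.4 to 119 CPM) and to Cat ENSRNOG00000008635 (r = 0.97, 3.22 to 8.22 CPM). None of the other 4 genes was among the 3 closest to any of them, and these identifiers come without symbols. All points share the libraries' scaling.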

How the data were processed

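Motor cortex poly(A) RNA was sequenced after stranded library preparation (stated by the labels' protocols). The submitters' processing notes name Trim Galore, STAR, featureCounts and the assembly mRatBN7.2, without versions; sources used here do not state the annotation release, the strand setting or how CPM were made. CPM were deposited by the authors under Ensembl identifiers, and 0 columns were left unmatched to a sample. Values in each column were whole multiples of 1 step, so whole reads were recovered for 100% of values within 0.001 read, and total reads per library follow from the step.

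Gene names of the 5 members come from the member list. 0 of 16534 identifiers were paired with a symbol in the tables used here, so the pathway and marker lists, and likeness restricted to genes with a symbol, were not analysed here; likeness was taken over all features instead. Members and lists were chosen with earlier results of these data known. The rule for named genes was to describe every member.

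The main test was limma (3.58.1, R 4.3.3) on log2(CPM + 0.5), a scale that understates changes of low genes, with 12 libraries, 1 coefficient per group, a trended prior variance and 8 residual degrees of freedom. P-values are two-sided and Benjamini-Hochberg adjusted over 14985 features. Alternatives were pseudocounts, filters, scalings, variance prior, groups fitted, a replicate block, leaving out each library, and edgeR (4.0.16) and DESeq2 (1.42.0) on recovered reads. The code was tested on simulated data.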

Additional observations from a re-analysis of the deposited data

How the results depend on the processing

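Across 24 alternatives, Hmox1 was lower in PD than control rats and higher in stimulated PD than PD rats, Sod2 was higher and Cat lower in lesioned rats, and Sod2 was higher in stimulated PD than in stimulated control rats, in every one that could be run. Part of this was fixed in advance. Filters, the variance prior, the groups fitted, the replicate block and leaving out a rat of a group not compared leave the difference itself unchanged. Where 2 groups do not overlap, leaving out 1 rat cannot turn the sign. The 24 alternatives are therefore not 24 separate checks of sign. The number of the 5 genes called, 0 in each comparison, became 1 (Sod2) between lesioned and unlesioned rats with TMM factors, median-of-ratios factors, edgeR or DESeq2, 1 (Sod2) between stimulated PD and stimulated control rats with DESeq2, 1 (Hmox1) between stimulated PD and PD rats with DESeq2, and 1 (Sod2) between stimulated PD and control rats with only those groups fitted. The last of these fits called 2859 features in all. Leaving out 1 library, the number of the 5 genes called ranged from 0 to 1 in the comparisons of stimulated PD with stimulated control and with PD rats, and was 0 in the others. Where it was 1, the fit called 1876 to 2943 features in that comparison. The cause was not tested.

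Small differences turned sign. With TMM factors, median-of-ratios factors, edgeR and DESeq2, PD against control gave 0.15, 0.15, 0.17 and 0.18 for Nqo1 (0.29 after quantile normalization), 0.10, 0.10, 0.10 and 0.11 for Sod1, and 0.17, 0.16, 0.15 and 0.16 for Sod2. In the same order Sod1 in lesioned rats was 0.0462, 0.0369, 0.0430 and 0.0428, Nqo1 in stimulated PD against control rats 0.0632, 0.0497, 0.0593 and 0.0552 (0.13 after quantile normalization), and the Cat interaction -0.0253, -0.0309, -0.0266 and -0.0426. Nqo1 in lesioned rats was 0.10 after quantile normalization.

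Leaving out 1 library gave, in PD against control rats, -0.17 to 0.13 for Nqo1, -0.213 to 0.0548 for Sod1 and -0.102 to 0.0840 for Sod2. It gave -0.720 to 0.0319 for Hmox1 in lesioned rats, -0.14 to 0.16 for Nqo1 and -0.233 to 0.0340 for Sod1 in stimulated PD against PD rats. In stimulated against unstimulated controls it gave -0.73 to 0.61 for Hmox1 and -0.121 to 0.0270 for Sod1. Nqo1 in stimulated PD against control rats ran from -0.113 to 0.0854, and the interaction from -0.184 to 0.0837 for Sod1 and from -0.15 to 0.13 for Cat. Fewer rats widen the intervals by construction.

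With the rats' title numbers as a replicate block, 0 of 5 genes were called in each comparison, and the features called between lesioned and unlesioned rats went from 3451 to 2707, between PD and control rats from 657 to 282, between stimulated PD and stimulated control rats from 217 to 2 and between stimulated PD and control rats from 5 to 2. Rats with the same title number did not deviate together (correlations of -0.46 to 0.36, median -0.02), and 1 of 12 libraries correlated best with its own number in every other group. The sample descriptions carry another numbering, which differs from the titles in PD and stimulated PD rats. Pairing by that numbering was not tested. With 3 rats a group and 8 residual degrees of freedom, the spread of Hmox1 between rats, not depth, set the width of its intervals. For the motif, 1 of 4 windows held TGACNNNGC and 0 held it followed by an A.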
